A study of Schizosaccharomyces pombe with 36 samples.

Results

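The creER strain of the fission yeast Schizosaccharomyces pombe carries a β-estradiol-dependent Cre recombinase and no floxed gene, and served as the control for conditional knockouts of tti2 and tra2. Its response to β-estradiol was described here across all genes, from 6 of the 36 libraries of the series. These are 3 cultures of creER treated with β-estradiol for 21 h and 3 cultures of the same strain treated with the solvent DMSO for 21 h, all in rich YES medium and collected in mid-logarithmic growth. The dose of β-estradiol was 1 µM. The strains set beside it also carry creER: in tti2-CKO the tti2 gene lies between loxP sites (cre-ER lox-tti2-lox, 18 h of treatment), and in tra2-CKO the tra2 gene does (cre-ER lox-tra2-lox, 21 h). Wild-type (WT) cells were grown in YES without either agent. The promoter that drives creER is not given in the sources used here, and each strain is a single strain number. No library of a strain without creER that received β-estradiol was analysed here, so the hormone and the activated recombinase cannot be told apart as the source of any difference described here.

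CreER is a fusion of the phage recombinase Cre with the hormone-binding domain of the oestrogen receptor. Without hormone the fusion is held inactive by the Hsp90 chaperone machinery. Binding of β-estradiol releases it, and Cre then recombines DNA at loxP sites. Fission yeast has no oestrogen receptor of its own. Its main transcriptional stress programs are the Sty1 MAP kinase pathway, which acts through Atf1 in a shared response to many stresses, the heat shock factor Hsf1, which drives chaperone genes, and Pap1, which drives antioxidant and drug-efflux genes. Nutrient genes answer to dedicated regulators, such as Fep1 and Php4 for iron.

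Total counts ranged from 5926304 to 6756655 in the DMSO libraries and from 7690015 to 9724398 in the β-estradiol libraries, so every treated library was deeper than every control. Levels are given as counts per 1000000 counts (CPM) on TMM-scaled library sizes, in the order of cultures 1, 2 and 3. The genes that the other strains lose did not pass the test in creER. The mRNA of tra2 was at 134, 133 and 126 CPM with DMSO and at 143, 149.7 and 150.3 CPM with β-estradiol (edgeR, adjusted p = 0.166), and that of tti2 at 15.2, 27.9 and 17.2 and 13.1, 23.3 and 20.5 CPM (adjusted p = 0.796). Cultures that share a number deviated together across genes (Pearson's r = 0.69, 0.58 and 0.34 for numbers 1, 2 and 3). For unlike numbers r ran from −0.60 to 0.30. The highest of these, between DMSO culture 2 and β-estradiol culture 3, was close to the value of number 3. The deviations are from the group mean and cancel out within a group, so the values for unlike numbers are not an independent baseline. The culture number entered the fit as a block, as planned. The meaning of the number is not given in the sources used here, and the cultures with number 1 stood apart from the others, as described further on. These are bulk measurements, in which a change in every cell and a larger change in some cells cannot be told apart.

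In creER, 182 of the 4904 genes tested changed with β-estradiol, 3.71% of them, and most rose. Of these, 135 genes were higher (2.75% of genes tested) and 47 were lower (0.958%), where a call needed a fold change of 1.5 or more and an adjusted p no higher than 0.01 (edgeR quasi-likelihood test, Benjamini-Hochberg). Among the largest rises were SPCC757.02c, the pyruvate decarboxylase gene pdc201, the enolase gene eno102 and the chaperone genes ssa1 and hsp16. Among the largest falls were sus1, which encodes a SAGA subunit, the sulfate transporter gene sul2 and the siderophore transporter gene str3. The median log2 fold change was 0.98 among the genes called higher, −0.94 among those called lower and −0.01 over all genes tested. Of the 182 genes, 86 changed at least 2-fold, 67 of them upwards. The 3 treated cultures lay wholly above or below the 3 controls for 160 of the called genes, as they did for 20% of all genes tested. Of the called genes, 181 changed in the same direction in each of the 3 like-numbered pairs. Both counts are favoured by the call itself, which was fitted on these same libraries and pairs, and are not separate support for it. Without the replicate block, edgeR called 56 genes, 49 higher and 7 lower, and DESeq2 called 136, 109 higher and 27 lower, and all of these were among the 182. DESeq2 with the block called 155. With the 2 libraries of culture number 1 left out, 203 genes were called, 158 higher and 45 lower, and 166 of them were among the 182. With every library thinned to the smallest total, 188 were called and 176 of them were shared.

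**Figure D1:**
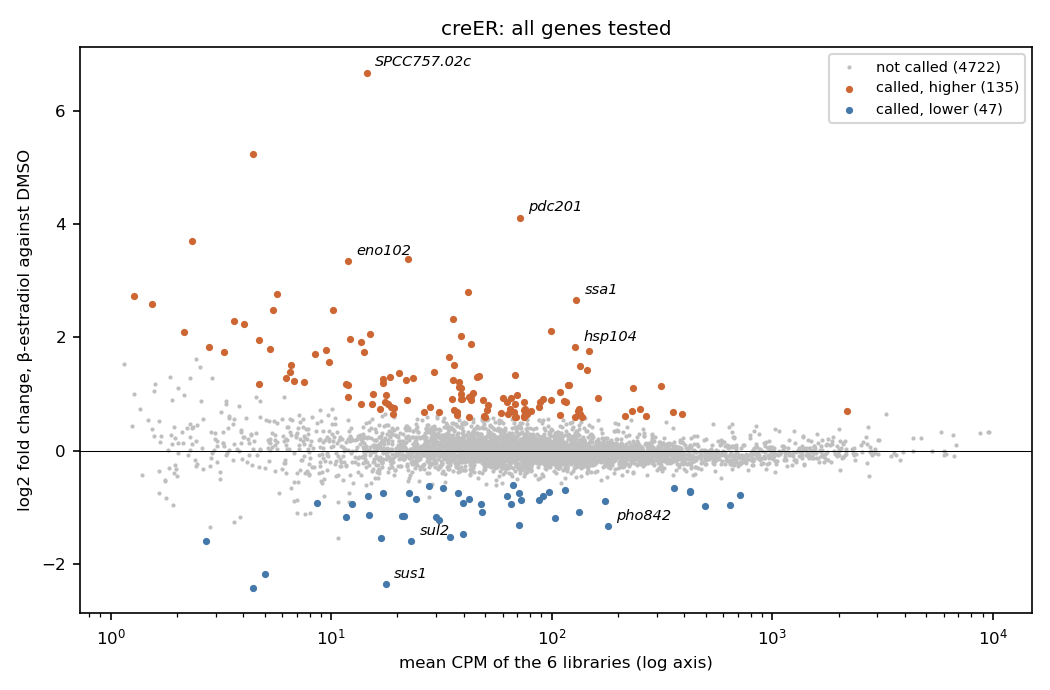
Log2 fold change of each gene tested in creER, β-estradiol against DMSO at 21 h, against its mean CPM over the 6 libraries on a log axis. Each point is a gene, orange for the 135 called higher, blue for the 47 called lower and grey for the others; the called rises reach a log2 fold change of 6.67 and the called falls −2.41.

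The largest rise was that of SPCC757.02c, annotated as an epimerase, which was close to silent without the hormone. Its level was 0, 0.627 and 0.161 CPM with DMSO, a total of 5 counts over the 3 libraries, and 25.2, 32.4 and 28.8 CPM with β-estradiol, a total of 756 counts. All 3 treated cultures were alike and far above every control (log2 fold change 6.67, 95% interval 5.93 to 7.40, edgeR, adjusted p = 3.56e-10). With so few counts in the controls, the size of the fold change depends on the fit, and ranged from 6.13 to 8.22 over the alternatives.

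After SPCC757.02c, the largest rise at a mean level of 10 CPM or more was in pdc201, which encodes a pyruvate decarboxylase, the enzyme that turns pyruvate into acetaldehyde on the way to ethanol. Its mRNA was at 10.4, 6.58 and 6.60 CPM with DMSO and at 134, 140.0 and 134 CPM with β-estradiol. The treated cultures differed from each other by far less than the treatment changed the level (log2 fold change 4.11 ± 0.13 (SE), adjusted p = 1.98e-13, edgeR), and this was the smallest p of all genes. The enolase gene eno102, of glycolysis, rose from 1.46, 3.76 and 1.13 CPM to 17.3, 23.9 and 23.7 CPM (log2 fold change 3.35 ± 0.27 (SE), adjusted p = 6.77e-08). It was low in all 3 control cultures, and every treated culture was above them. Among 5 pyruvate decarboxylases and alcohol dehydrogenases tested, pdc201 was the only called gene (20% beside 2.75% of all genes called higher). Among 13 glycolytic genes, eno102 was the only one (7.69% beside 2.75%). The glycolytic genes had a median log2 fold change of 0.22, with 11 of the 13 above 0. The tdh1 gene, a glyceraldehyde-3-phosphate dehydrogenase gene, had a log2 fold change of 0.33 and adh1, the main alcohol dehydrogenase gene, one of 0.32, and neither passed the test (adjusted p = 0.404 and 0.309, edgeR).

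Annotated dehydrogenases were also among the largest rises. SPAC4H3.08, annotated as a 3-hydroxyacyl-CoA dehydrogenase, went from 3.73, 4.70 and 3.22 CPM to 45.6, 37.9 and 39.4 CPM (log2 fold change 3.38 ± 0.18 (SE), adjusted p = 4.24e-10, edgeR). SPAC5H10.04, annotated as an NADPH dehydrogenase, went from 9.72, 11.1 and 14.6 CPM to 57.6, 59.5 and 60.6 CPM (log2 fold change 2.32 ± 0.14 (SE), adjusted p = 1.75e-09). In both, the groups were separated by a gap much wider than either group. The gene lsd90, which encodes a protein annotated by name only, was at 10.2, 8.15 and 13 CPM with DMSO and at 76.1, 73.9 and 68.3 CPM with β-estradiol (log2 fold change 2.79 ± 0.15 (SE), adjusted p = 3.56e-10). SPCC191.05c, annotated as a nucleoside 2-deoxyribosyltransferase, rose from 15.4 ± 5.61 to 61.9 ± 6.11 CPM (mean ± SD, n = 3 per group, log2 fold change 2.02). The 12 largest rises were taken among called genes with a mean of 10 CPM or more and no overlap between groups. Larger rises outside these limits, such as that of mug131 (5.24 on the log2 scale), are not among them. The 12 also include mug97 (2.48), named for its induction in meiosis, and the uncharacterized SPCC737.04 (2.06) and SPAC15E1.02c (1.97).

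**Figure D2:**
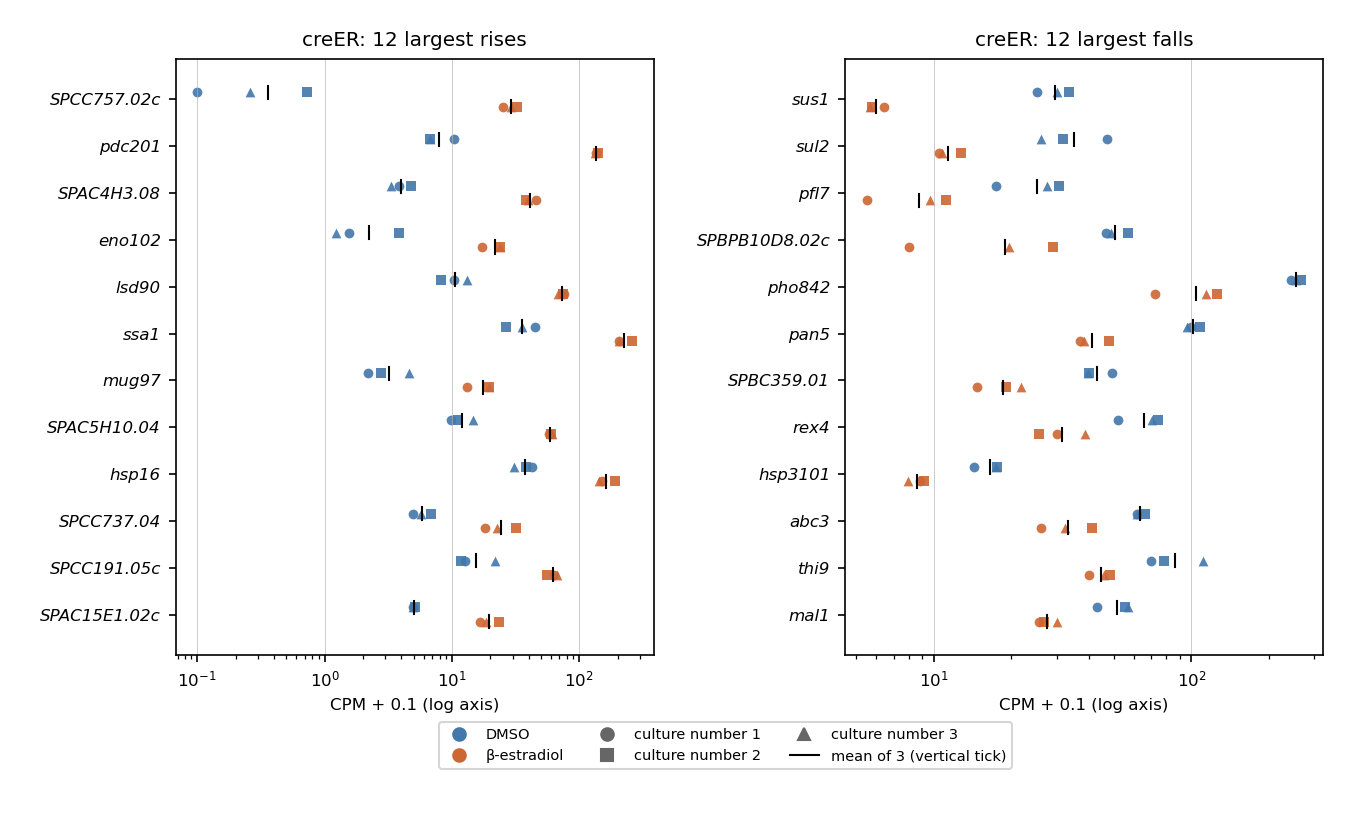
CPM of the 12 genes with the largest rises (left) and the 12 with the largest falls (right) in each creER library, plus 0.1, on log axes. Blue points are DMSO and orange points β-estradiol cultures. Circles, squares and triangles are culture numbers 1, 2 and 3, and a black tick marks each mean of 3. The 24 genes were taken among called genes at 10 CPM or more on average whose groups do not overlap. For pdc201 the 3 treated cultures lie together near a mean of 136 CPM.

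A few chaperone genes rose strongly and most others were not called. Of 21 heat shock and chaperone genes tested, 4 were called higher, 19.0% beside 2.75% of all genes, and the list had a median log2 fold change of 0.25 with 18 of 21 above 0. The Hsp70 gene ssa1, whose product folds newly made and damaged proteins in the cytosol, was at 44.6, 26.3 and 35.3 CPM with DMSO and at 206, 259 and 204 CPM with β-estradiol (log2 fold change 2.65 ± 0.13 (SE), adjusted p = 2.30e-10, edgeR). The small heat shock protein gene hsp16 rose from 42.3, 38.1 and 30.9 CPM to 152, 189.5 and 143 CPM (log2 fold change 2.11 ± 0.09 (SE), adjusted p = 4.74e-11). The disaggregase gene hsp104 rose from 67.4, 50.0 and 51.0 CPM to 194, 236 and 170.1 CPM (log2 fold change 1.82 ± 0.10 (SE), adjusted p = 8.65e-10). In all 3 genes culture number 2 was the highest of the treated cultures and no treated culture reached down to a control. The Hsp40 gene psi1 went from 65.5, 28.5 and 42.8 CPM to 98.5, 68.1 and 74.1 CPM (log2 fold change 0.85), with a control of number 1 close to the lower treated cultures, and it was not called without the block in edgeR (adjusted p = 0.232) or in DESeq2. Other chaperone genes did not pass the test. The log2 fold change was 0.25 for ssa2, another cytosolic Hsp70 (adjusted p = 0.211), 0.27 for hsp90 (adjusted p = 0.18), whose product holds unliganded CreER, and 0.28 for the regulator hsf1 (adjusted p = 0.0158), and none of these was called. The genes hsp78, a mitochondrial disaggregase (0.47), and sti1, an Hsp90 cochaperone (0.34), passed the adjusted p but not the fold.

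Most Sty1 stress genes had values slightly above 0, and few of them were called. Of 19 tested, 3 were called higher (15.8% beside 2.75% of all genes), 18 had a log2 fold change above 0, and the median was 0.39. The called genes were rds1, ish1 and zym1. The stress gene rds1 was at 103, 36.2 and 98 CPM with DMSO and at 299, 109 and 226 CPM with β-estradiol (log2 fold change 1.42 ± 0.09 (SE), adjusted p = 1.54e-09, edgeR). Culture number 2 was lowest in each group, and each treated culture exceeded its like-numbered control. The metallothionein gene zym1, whose product binds zinc, rose from 13.9, 8.62 and 11.3 CPM to 37.9, 24.3 and 25.8 CPM (log2 fold change 1.37 ± 0.16 (SE), adjusted p = 5.58e-06), and ish1, which encodes a nuclear envelope protein, from 34.0, 38.9 and 43.0 CPM to 60.3, 63.4 and 67.3 CPM (log2 fold change 0.72 ± 0.10 (SE), adjusted p = 8.92e-05). Without the block edgeR called none of rds1, zym1 and ish1 (adjusted p = 0.197, 0.0224 and 0.0152), and DESeq2 called zym1 and ish1. Another 5 passed the adjusted p with folds under 1.5: gpd1 and tps1, which serve glycerol and trehalose synthesis, ntp1, which encodes trehalase, the heat shock gene hsp9 and the catalase gene ctt1, with log2 fold changes of 0.47, 0.55, 0.47, 0.49 and 0.43. The pathway's own kinases and factors sty1 (0.03), wis1 (0.07) and atf1 (0.07) were not called.

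Few antioxidant genes were called, and more drug-efflux genes were called lower than higher. Among 22 Pap1-dependent oxidative stress genes 1 was called, 4.55% beside 2.75% of all genes called higher. It was the transporter gene caf5, named for caffeine resistance, at 41.0, 43.7 and 34.1 CPM with DMSO and 49.7, 71.6 and 60.3 CPM with β-estradiol (log2 fold change 0.60 ± 0.12 (SE), adjusted p = 0.00162, edgeR). The Pap1 list had a median log2 fold change of 0.00 with 11 of 22 above 0. Of 14 multidrug and detoxification transporters, caf5 was called higher (7.14% beside 2.75%), and mfs1, mfs3 and abc3 were called lower (21.4% beside 0.958%, log2 fold change −0.72, −0.72 and −0.95). That list had a median of −0.11 with 4 of 14 above 0. The major facilitator gene mfs1 went from 121 ± 15 to 74.3 ± 14.9 CPM (mean ± SD, n = 3 per group) without overlap. The polyamine transporter gene mfs3 was far higher in number 1 than in the other cultures of its group, at 837, 298 and 417 CPM with DMSO and 609.6, 180.1 and 212 CPM with β-estradiol, so that the groups overlapped although each pair fell. Without the block edgeR called none of caf5, mfs1, mfs3 and abc3 (adjusted p = 0.1, 0.0482, 0.688 and 0.0187). DESeq2 without the block called mfs1 and abc3, but not caf5 or mfs3. The caf5 call was lost in 12 of its 20 alternatives.

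Few genes of cell adhesion were called, and these were in both directions. Flocculins are cell wall glycoproteins that make yeast cells stick to each other, and Mbx2 is a MADS-box factor known to switch them on in fission yeast. Of 18 flocculin and regulator genes, 3 were called higher (16.7% beside 2.75% of all genes) and 1 lower (5.56% beside 0.958%). The list had a median log2 fold change of 0.11, with 13 of 18 above 0. The regulator gene mbx2 rose from 22.4, 27.3 and 23.8 CPM to 58.2, 53.3 and 48.1 CPM (log2 fold change 1.11 ± 0.13 (SE), adjusted p = 6.10e-06, edgeR), and pfl8 from 37.1, 43.3 and 35.9 CPM to 86.1, 114 and 94.2 CPM (log2 fold change 1.33 ± 0.09 (SE), adjusted p = 8.48e-09). The pfl3 gene went from 78.3, 80.0 and 81.8 CPM to 149, 145 and 148 CPM (log2 fold change 0.87 ± 0.08 (SE), adjusted p = 2.15e-07), with hardly any spread within groups. Of its 50-base windows 33.7% also occur elsewhere in the reference genome, so its counts are uncertain. In contrast, pfl7 fell from 17.3, 30.6 and 27.4 CPM to 5.40, 11 and 9.60 CPM (log2 fold change −1.55 ± 0.16 (SE), adjusted p = 2.83e-06), a call lost without the block in edgeR (adjusted p = 0.0337) and kept in DESeq2.

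The mating and meiotic entry genes did not move as a group. Of 23 tested, only spk1, the MAP kinase gene of the pheromone pathway, was called (4.35% beside 2.75% of all genes called higher), at 14.7, 12.1 and 11.8 CPM with DMSO and 34.6, 28.2 and 29.8 CPM with β-estradiol (log2 fold change 1.25 ± 0.15 (SE), adjusted p = 7.39e-06, edgeR). The list's median log2 fold change was −0.04, with 10 of 23 above 0. With culture number 1 left out, 3 of the list were called, beside 203 of all 4914 genes tested in that fit.

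The strongest fall with at least 10 CPM was in sus1. Sus1 is a small subunit of the deubiquitination module of the SAGA coactivator, and also of the TREX-2 complex that links transcription to mRNA export. Its mRNA was at 25.1, 33.5 and 30.1 CPM in the DMSO cultures and at 6.34, 5.66 and 5.57 CPM in the β-estradiol cultures. The treated cultures were nearly equal and every one of them was far below the lowest control (log2 fold change −2.35 ± 0.18 (SE), adjusted p = 3.56e-08, edgeR). It was called under every alternative. The other 18 SAGA genes tested were not called, among them those of the same module, ubp8, the deubiquitinase (0.29 on the log2 scale), sgf73 (0.12) and sgf11 (−0.08). No gene was called among 16 genes of NuA4, the acetyltransferase complex that contains Tra2, 7 genes of the TTT complex and its partners, which include tti2, or 6 genes of PIKK kinases, with edgeR or with DESeq2. At an unadjusted p under 0.05 in edgeR they held 3, 0 and 1 genes, beside 1176 of all 4904 genes tested.

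Several transporter genes were among the remaining falls. The sulfate transporter gene sul2 fell from 47.2, 31.7 and 26.1 CPM to 10.4, 12.7 and 10.7 CPM (log2 fold change −1.60 ± 0.17 (SE), adjusted p = 3.47e-06, edgeR). It was the only called gene of 14 in sulfur assimilation (7.14% beside 0.958% of all genes called lower). The arylsulfatase gene SPBPB10D8.02c, whose product frees sulfate from organic esters, fell from 46.5, 56.9 and 48.6 CPM to 7.96, 28.9 and 19.4 CPM (log2 fold change −1.52 ± 0.19 (SE), adjusted p = 2.12e-05), most of all in number 1, and was not called without the block in edgeR (adjusted p = 0.1) but was in DESeq2. The phosphate transporter gene pho842 fell from 243, 267 and 255 CPM to 72.1, 126 and 114 CPM (log2 fold change −1.33 ± 0.10 (SE), adjusted p = 2.71e-08, edgeR). It was the only called gene of 11 that respond to phosphate (9.09% beside 0.958% of all genes called lower). All 3 genes were low in every treated culture. The predicted amino-acid permease gene SPBC359.01 went from 42.9 ± 5.34 to 18.5 ± 3.65 CPM and the thiamine transporter gene thi9 from 86.2 ± 21.6 to 44.6 ± 4.22 CPM (mean ± SD, n = 3 per group), with log2 fold changes of −1.22 and −0.94. The 12 largest falls were taken by the same limits as the rises. Falls such as those of fio1 (−1.16) and isp5 (−1.14), whose groups overlap, are therefore not among them. Of the 12, pan5, of pantothenate synthesis, fell from 99.8, 108 and 96.3 CPM to 36.8, 47.9 and 38.2 CPM (log2 fold change −1.32 ± 0.09 (SE), adjusted p = 8.71e-09, edgeR). They also include the exoribonuclease gene rex4 (−1.08), the glyoxalase III gene hsp3101 (−0.95), the vacuolar ABC transporter gene abc3 (−0.95) and the maltase gene mal1 (−0.91). Without the block edgeR called none of thi9, rex4, hsp3101, abc3 and mal1 (adjusted p = 0.0266, 0.0232, 0.0266, 0.0187 and 0.0132), whereas DESeq2 called each of them. The hsp3101 call was lost in 10 of its 20 alternatives.

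Iron genes were called in both directions. Fission yeast takes up iron either by reducing it at the surface, with the reductase Frp1 and the oxidase and permease pair Fio1 and Fip1, or by importing iron-loaded siderophores through Str1 to Str3, and it makes its own siderophore, ferrichrome, with Sib1 and Sib2. Of 17 iron and copper genes tested, 5 were called lower (29.4% beside 0.958% of all genes) and 2 higher (11.8% beside 2.75%). The siderophore transporter gene str1 was at 21.6, 252 and 264 CPM with DMSO and at 11.1, 93.6 and 157 CPM with β-estradiol (log2 fold change −1.08 ± 0.11 (SE), adjusted p = 1.56e-06, edgeR). In both groups number 1 was lowest by a wide margin, so the groups overlapped, while each treated culture was below its like-numbered control. The same held for fio1, at 4.05, 15.5 and 28.8 and 1.75, 7.35 and 12.6 CPM (log2 fold change −1.16), and for the low-count str3, with 139 counts over the DMSO and 38 over the β-estradiol libraries (−2.41). The fifth was the vacuolar transporter gene abc3 named above. The reductase gene frp1 fell from 16.5, 30.9 and 41.2 to 10.1, 11.6 and 17.5 CPM (−1.16). The ferrichrome synthesis genes moved the other way, sib1 from 118, 121 and 89.3 to 152, 171 and 175 CPM (log2 fold change 0.60 ± 0.09 (SE), adjusted p = 0.000199) and the adjacent sib2 from 66.3, 40.4 and 43.0 to 97.2, 74.1 and 90.2 CPM (log2 fold change 0.82 ± 0.10 (SE), adjusted p = 1.35e-05). Without the block, edgeR called none of these iron genes, whereas DESeq2 still called sib1, sib2 and abc3. With culture number 1 left out, edgeR called 8 genes of the list, beside 203 of all 4914 genes tested in that fit.

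Among 6 hexose transporter genes tested, 2 were called lower (33.3% beside 0.958% of all genes) and 1 higher (16.7% beside 2.75%). The high-affinity glucose transporter gene ght5 was at 2636, 162 and 131 CPM with DMSO and 721, 117 and 100.3 CPM with β-estradiol (log2 fold change −0.95 ± 0.19 (SE), adjusted p = 0.00263, edgeR). Number 1 alone set the mean of each group, and with culture number 1 left out the log2 fold change was −0.43 and no longer a call. The call was also lost in edgeR without the block and in DESeq2 with it, and 29.6% of its 50-base windows occur elsewhere. Another member of the list, ght4, went from 51.4, 26.2 and 24.3 to 26.3, 20.6 and 17.5 CPM (−0.62), a call also lost with number 1 left out (−0.41), without the block and with DESeq2. The ght6 gene was near the limit of detection, with 8 counts over the DMSO libraries and 68 over the β-estradiol libraries (log2 fold change 2.59, 95% interval 1.46 to 3.72, adjusted p = 0.00294, edgeR). Its call was lost in edgeR without the block (adjusted p = 0.0153) and in DESeq2 with it.

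Of 12 glucose-repressed genes, 1 was called higher (8.33% beside 2.75% of all genes) and 2 lower (16.7% beside 0.958%). The maltose-hydrolysing agl1 rose from 24.7 ± 5.90 to 46.3 ± 2.14 CPM (mean ± SD, n = 3 per group, log2 fold change 0.92), and mal1 and the galactose gene gal7 fell (−0.91 and −0.74). The agl1 and mal1 calls were lost in edgeR without the block (adjusted p = 0.0274 and 0.0132). The agl1 call was also lost with the block when DMSO culture 3 was left out. The gal7 call was lost without the block, with DESeq2 and with culture number 1 left out. The gluconeogenic gene fbp1, the classical readout of glucose repression, had a log2 fold change of 0.21 (adjusted p = 0.683, edgeR). Of 20 nitrogen and permease genes, the oligopeptide transporter gene isp4 was called higher (5% beside 2.75% of all genes) and the amino acid transporter gene isp5 lower (5% beside 0.958%). The isp4 mRNA was at 325, 37.8 and 44.9 CPM with DMSO and 324, 119 and 125 CPM with β-estradiol (log2 fold change 0.92 ± 0.20 (SE), adjusted p = 0.00377), about equal in the pair of number 1 and higher with β-estradiol in the other pairs, and its call was lost without the block and with DESeq2. The isp5 mRNA was at 62.7, 12.7 and 14.3 and 20.5, 7.65 and 8.06 CPM (log2 fold change −1.14 ± 0.18 (SE), adjusted p = 0.000241), with the largest fall in number 1. The isp5 log2 fold change was −0.78 with an adjusted p of 0.0283 when number 1 was left out. Without the block the isp5 call was lost in edgeR (adjusted p = 0.438) and in DESeq2, and it was lost in 12 of its 20 alternatives.

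No gene was called among 32 genes of the DNA damage response and repair, 14 MBF targets of the G1/S program, 10 histone genes, 28 genes of the Sre1 sterol and oxygen pathway, 10 heterochromatin and subtelomere genes or 141 ribosomal protein genes. At an unadjusted p under 0.05 in edgeR they held 4, 1, 1, 8, 2 and 15 genes, beside 1176 of all 4904 genes tested. DESeq2 called no gene of these lists. Their median log2 fold changes were 0.03, −0.09, 0.00, −0.02, 0.10 and −0.02, beside −0.01 over all genes tested. The widest range within these lists was that of the ribosomal protein genes, from −0.41 to 0.43. The heterochromatin and subtelomere list does not cover all genes near chromosome ends, and its members tlh1 and tlh2 were not tested.

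**Figure D3:**
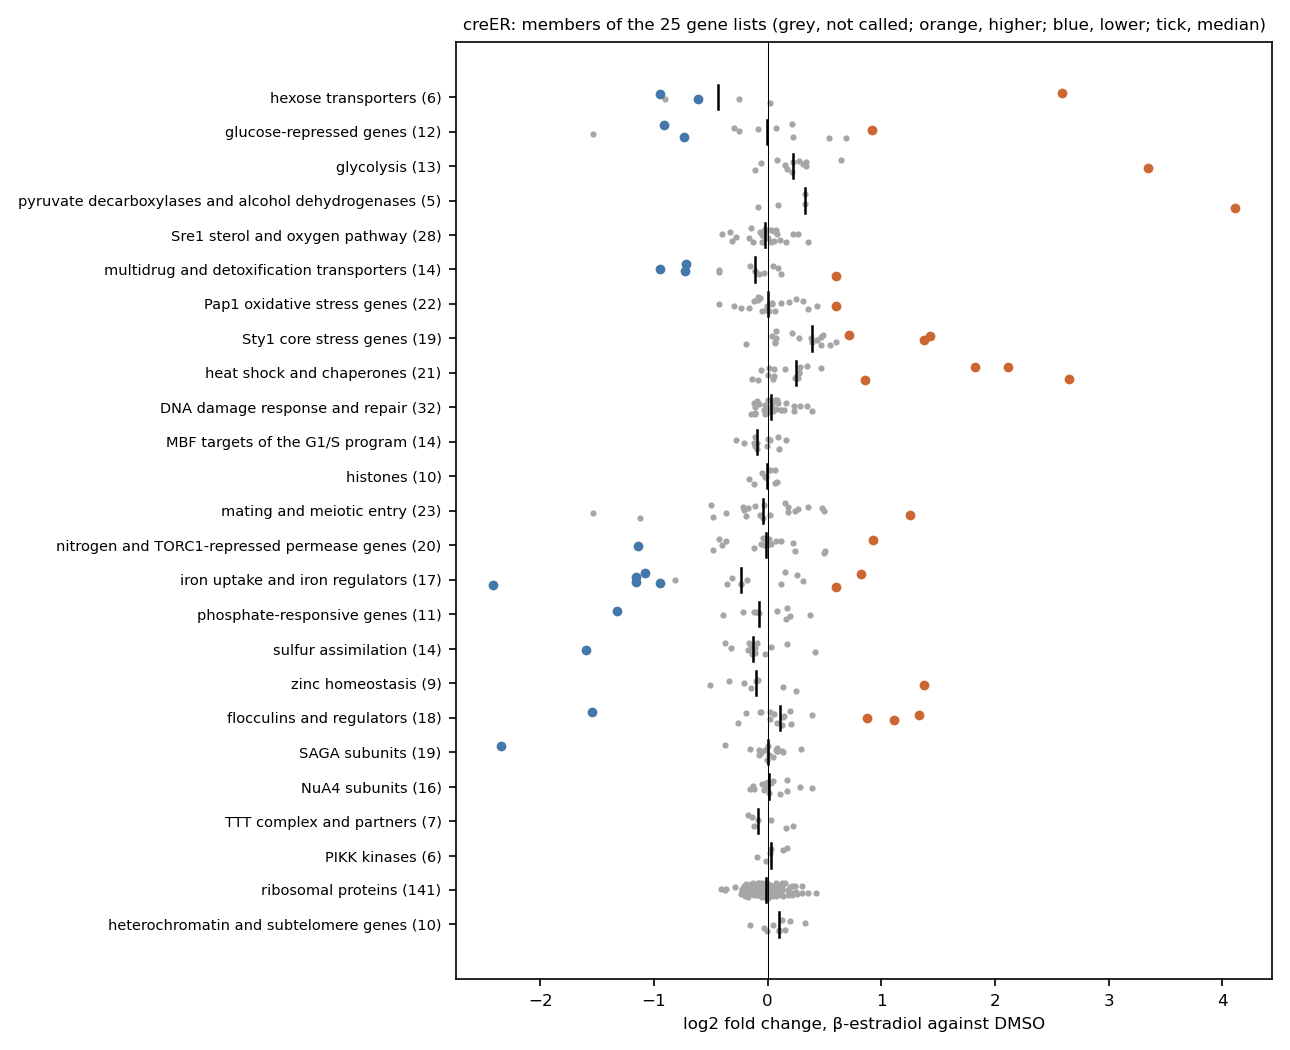
Log2 fold change in creER, β-estradiol against DMSO, of every tested member of 25 gene lists, with the number tested in parentheses. Orange and blue points are members called higher and lower, grey points were not called and black ticks are list medians; the ticks of the Sty1 (0.39) and heat shock (0.25) lists lie to the right of 0, whereas the called iron genes lie mostly to the left.

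The culture number, like the treatment, moved many genes in these libraries. In a test of the 2 block terms together, 396 of the 4904 genes differed between culture numbers (8.08%, edgeR, adjusted p of at most 0.01), and in 353 of them number 1 lay farthest from the other numbers, higher in 150 and lower in 203. By the adjusted p alone, the treatment changed 319. Of the 182 genes that changed with β-estradiol, 33 also differed between numbers. The gene with the smallest p was str1, whose levels are given above. The C-5 sterol desaturase gene erg31 was at 602, 148 and 171 CPM with DMSO and at 632, 193 and 203 CPM with β-estradiol (adjusted p = 2.95e-10 between numbers, edgeR). Number 1 was about as far above the others in each group, and the treatment left the order as it was. The uracil-responsive gene urg1 was at 3467, 98.3 and 241 and 1892, 149 and 264 CPM, and uck2, annotated as a uracil phosphoribosyltransferase gene, at 397, 33.9 and 58.0 and 247, 45.7 and 60.3 CPM. The peroxiredoxin-type gene pmp20 ran the other way, at 194, 542 and 751 and 134, 412 and 585 CPM, lowest in number 1.

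Of the lists, the largest shares that differed between culture numbers were those of the nitrogen and permease genes (55%), the hexose transporters (50%, 3 of 6), the iron and copper genes (35.3%), and the Sre1 and glucose-repressed genes (25% each), beside 8.08% of all genes. Of the 28 genes of the Sre1 pathway, which controls sterol synthesis and growth at low oxygen, none was called with β-estradiol. Among them, sre2 and erg28 passed the adjusted p with a fold change under 1.5. In the test of culture numbers, which had no fold threshold, 7 differed, 6 of them highest in number 1. These 6 were erg31, erg1, erg11, osm1, the haem synthesis gene hem13 and sre1 itself. The level of hem13 was 1635, 356 and 527 CPM with DMSO and 1484, 300.3 and 349 CPM with β-estradiol, and that of sre1 518, 204 and 233 and 516, 228 and 254 CPM. Of the 17 iron and copper genes, 6 differed between numbers and all 6 were lowest in number 1. They were str1, str3, fio1, fip1, frp1 and the iron-starvation regulator gene php4. Of 20 nitrogen and permease genes, 11 differed between numbers, 8 of them highest in number 1, among them the proline permease gene put4 at 201, 37.2 and 34.6 and 110.4, 30.9 and 38.6 CPM. Which feature of the cultures the number marks was not tested.

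**Figure D4:**
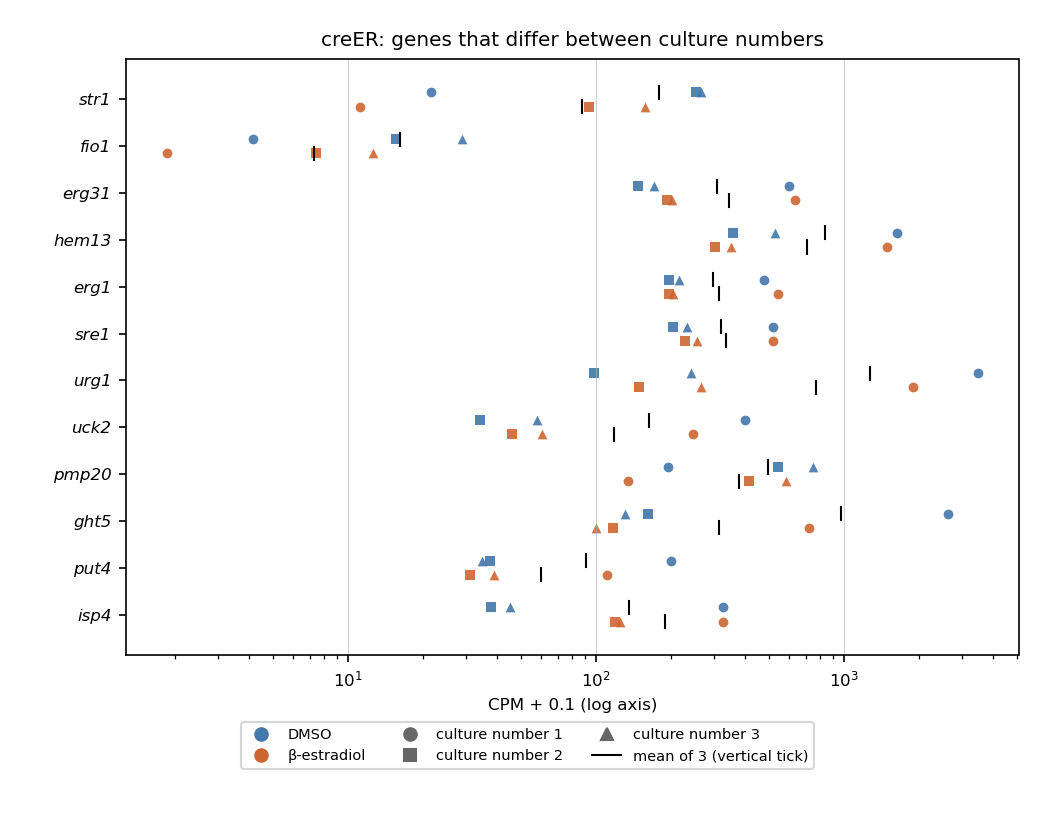
CPM, plus 0.1 and on a log axis, of 12 genes that differ between culture numbers in creER, chosen after their values were seen, in each of the 6 libraries. Blue points are DMSO and orange points β-estradiol cultures, circles, squares and triangles are culture numbers 1, 2 and 3, and black ticks are means of 3; the circles of number 1 lie to the left for str1, fio1 and pmp20 and to the right for the other genes, in both treatments.

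The floxed strains carry creER and received the same hormone, and share no library with creER, so they show which of these changes recur. In tra2-CKO, also treated for 21 h, 7.87% of genes were called higher and 2.33% lower against its own DMSO cultures. Of the 135 genes called higher in creER, 120 were called higher there too, which is 88.9% of the creER list and 31.9% of the tra2-CKO list. Of the 47 called lower, 23 were called lower there, 48.9% of the creER list and 20% of the other. None of the rises and 1 of the falls was called in the opposite direction. In tti2-CKO, treated for 18 h, 4.96% of genes were called higher and 6.24% lower. Of the called genes that were also tested there, 58 of 133 rises (43.6% of the creER list, 24.3% of the other) and 21 of 46 falls (45.7% and 6.93%) recurred, whereas 3 rises and 6 falls were called in the opposite direction. Without the block in any of the fits, edgeR gave 53 genes shared with tra2-CKO and 33 with tti2-CKO, and DESeq2 gave 122 and 71, beside 143 and 79 in edgeR with the block.

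In all 3 strains, 56 genes rose and 13 fell. SPCC757.02c had log2 fold changes of 5.95 in tti2-CKO and 8.09 in tra2-CKO, beside 6.67 in creER. For pdc201 the values were 3.24 and 4.81 beside 4.11, and for sus1 −1.68 and −2.02 beside −2.35. These 3 genes were called in every strain that received the hormone. The sus1 mRNA was at 29.5 ± 1.59 and 9.41 ± 2.36 CPM in the DMSO and β-estradiol cultures of tti2-CKO, and at 29.4 ± 2.24 and 7.17 ± 1.23 CPM in those of tra2-CKO (SD, n = 3 per group). In each strain the treated cultures had the lower mean.

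**Figure D5:**
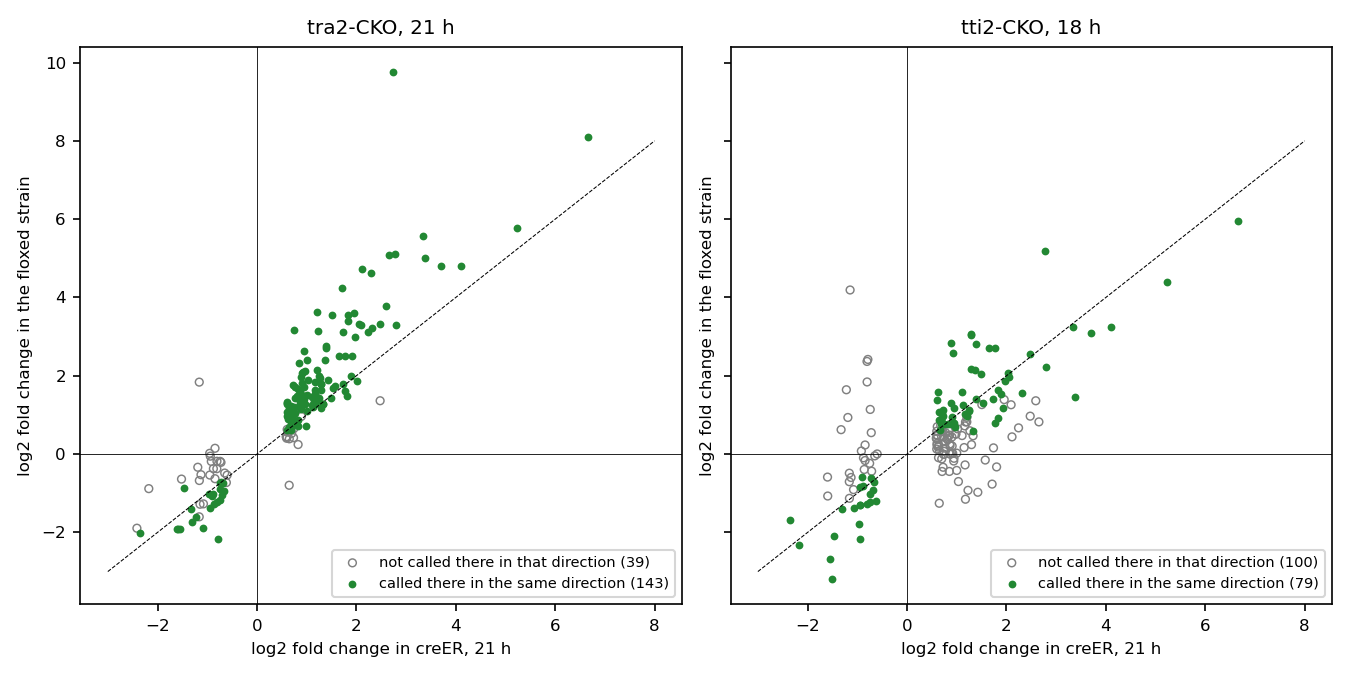
Log2 fold change after β-estradiol in tra2-CKO (left, 182 genes) and tti2-CKO (right, 179 genes tested in both) against that in creER, for the genes called in creER. Green points were called in the floxed strain in the same direction (143 and 79), open points were not, and the dashed line marks equal values; most rises lie above the line in tra2-CKO.

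The heat shock genes ssa1 and psi1 were among those whose response was smaller in creER than in tra2-CKO. The interaction of strain and treatment, which tests the difference itself, was called for 62 of 4946 genes (1.25%, edgeR; 19 without the block and 114 with DESeq2), 14 of them among the 182 called in creER. Of these, 11 rose less in creER, including ssa1 (log2 fold change 2.65 beside 5.08, interaction −2.39, adjusted p = 0.00892), psi1 (0.85 beside 2.34) and ish1 (0.72 beside 1.75). For hsp16 and hsp104 the values were 2.11 beside 4.73 and 1.82 beside 3.41, and the interaction was not called (adjusted p = 0.0117 and 0.0705). In tti2-CKO, after 18 h, the log2 fold changes of ssa1, hsp16 and psi1 were 0.82, 0.44 and −0.44, none of them called higher, and hsp104 was called higher (0.92). The remaining 3, named after their values were seen, had the opposite sign in tra2-CKO. They were aes1 (−1.16 beside 1.84), sro1 (−0.84 beside 0.15) and SPCC569.03 (0.65 beside −0.80). The tra2 gene itself had an interaction of 4.04, that gene being the target of the floxed allele.

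Of the genes called in creER, 13 higher and 16 lower were called in neither floxed strain in the same direction. The iron genes str1, fio1, frp1 and str3 were among the falls, although their log2 fold changes in tra2-CKO were −1.27, −1.60, −0.67 and −1.89, also below 0. The pair of number 1 in tra2-CKO went the other way for all 4 genes, for str1 from 25.4 to 64.4 CPM, while the other pairs fell, for str1 from 192 and 396 to 58.7 and 54.6 CPM. The isp5 gene (−1.14 in creER) was at −1.28 in tra2-CKO and at 4.19 in tti2-CKO. In tti2-CKO, gal7 was at 1.14, opposite in sign to creER, and in tra2-CKO at −0.19. Among genes that did recur, SPBC359.01 was at 1.64 and rds1 at −0.97 in tti2-CKO, opposite in sign to creER, whereas both were called in the direction of creER in tra2-CKO (−1.60 and 1.90). Times of treatment differ between these strains, and their difference was not tested.

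Levels in WT cells, which had neither creER nor DMSO, are set beside these as values only. For 35 of the 49 called genes named here the WT mean was nearer, on the log2 scale, to the creER mean with DMSO, and for 14 to that with β-estradiol. For sus1 it was 29.2 ± 3.64 CPM and for pdc201 9.78 ± 1.31 CPM (SD, n = 3), beside creER DMSO means of 29.6 and 7.85 CPM. The exceptions included eno102, at 14.4 ± 1.63 CPM in WT beside 2.12 ± 1.44 with DMSO and 21.6 ± 3.78 with β-estradiol, and pho842, at 122 ± 29.9 CPM beside 255 ± 11.9 and 104 ± 28.4 CPM. The flocculin gene pfl3, at 229 ± 5.86 CPM in WT, and rds1, at 448 ± 179 CPM, were higher there than in either creER group.

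Called genes were occasionally neighbours on the chromosome. Of 4750 adjacent pairs with both genes tested, 12 had both called, 4 with both higher, 6 with both lower and 2 in opposite directions. Of all genes tested, 3.71% were called, and whether called genes lie together more often than this share gives was not tested. The pairs with both higher included sib1 and sib2, and those with both lower linked mal1, ght4 and frp1, and pfl7, abc3 and mug14. SPCC757.02c (6.67) lies next to hsp3101, which fell from 14.3, 17.6 and 17.4 to 8.77, 9.04 and 7.82 CPM (−0.95). The hsp3101 call was lost without the block in edgeR. The genes on either side of sus1, ofd1 and nbs1, had log2 fold changes of −0.15 and −0.12, and those beside pdc201, peg1 and ppt2, of 0.14 and 0.12, and none of these was called.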

How the data were processed

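RNA was measured in 36 libraries of polyadenylated, strand-marked RNA, 6 of which are the creER comparison. The authors trimmed adapters, aligned reads with HISAT2 2.1.0 and counted them per gene with HTSeq 0.9.1 as reverse-stranded reads (union mode, alignment quality of 10 or more), and deposited the raw, unnormalized counts. Columns left unused numbered 0. The genome build is not given in the sources used here, so ASM294v3 served only for names, neighbours and shared 50-base windows (5111 of 5129 IDs matched, 4261 with a symbol), and no sequence is given.

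The counts were analysed with edgeR 4.0.16 in R 4.3.3: filterByExpr (minimum count 10), TMM, and the two-sided quasi-likelihood F-test of treatment with the replicate number as a block, adjusted by Benjamini-Hochberg over the 4904 genes tested. A call needed an adjusted p no higher than 0.01 and a fold change of 1.5 or more. The block was planned. In the pairing check, with 3 pairs, like-numbered libraries' deviations from the group means correlated at 0.69, 0.58 and 0.34, each over 0.1. Those of unlike-numbered libraries correlated at −0.60 to 0.30, so the pairing of number 3 stood little above them. Deviations cancel out within a group, so positive values for like numbers push those for unlike numbers down. The floxed strains were fitted the same way on their own libraries, and the interaction over 12 libraries. Scripts were tested on simulated data. In fits with the block, p-values measure the spread between cultures that is left after culture number and treatment are fitted. Total counts of 5926304 to 9724398 leave genes under 10 CPM imprecise.

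Named genes are the 12 largest rises and 12 largest falls among those called at 10 CPM or more on average without overlap between groups, every called member of the 25 gene lists (522 names matched, 9 not), tti2, tra2, SPCC757.02c, pdc201, sus1, sul2 and ght5, and the 5 genes with the smallest p for culture number at 10 CPM or more. Others are named within their list, or where said. Members and lists were chosen with earlier results of these data known. Alternatives were no block, DESeq2 1.42.0 (Wald test) with the block and without it, RLE normalization, no filter, at least 10 counts in every library, thinning, other thresholds, leaving out each library, and, added after the data were seen, leaving out culture number 1.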

Additional observations from a re-analysis of the deposited data

Results flagged for a closer look

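Among the genes called in creER, 14 responded differently in creER and tra2-CKO by the interaction test (edgeR, both at 21 h), given here as the log2 response in creER minus that in tra2-CKO. The difference was −2.39 for the Hsp70 gene ssa1, −1.47 for the Hsp40 gene psi1, −2.50 for ssd2, −2.41 for rtc3, −2.42 for SPCC70.08c, −1.67 for meu10, −1.31 for SPAC637.03, −1.13 for SPBC1685.17, −1.06 for hsp3104, −1.02 for ish1 and −0.69 for plr1, all of which rose in both strains, by less in creER. It was −3.03 for aes1 and −0.97 for sro1, which fell in creER, and 1.46 for SPCC569.03, which rose there. The tra2 gene, deleted in tra2-CKO, had a difference of 4.04. Since the 14 were picked among genes called in creER, their number is not evidence about the strain.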

How the results depend on the processing

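The effect of the replicate block depended on the tool. Without it, edgeR called 56 genes (49 higher, 7 lower), 53 shared with tra2-CKO, 33 shared with tti2-CKO, and an interaction for 19 genes. DESeq2 called 136 genes (109 higher, 27 lower) without the block, 122 shared with tra2-CKO and 71 with tti2-CKO, and 155 genes and 114 interactions with it. A fold change of at least 2 left 86 genes (67 higher, 19 lower). The other alternatives with all 6 libraries kept every count within 1.5 times. Leaving out each library in turn gave 136 to 203 called genes (98 to 159 higher, 38 to 45 lower) with the block, and far fewer without it. Without the block and without DMSO culture 1, 2 or 3 in turn, 61 (55 higher, 6 lower), 22 (20 and 2) and 10 (9 and 1) genes were called, and without β-estradiol culture 1, 2 or 3, 41 (37 and 4), 17 (15 and 2) and 18 (16 and 2). In these fits the direction of ght5 turned once (1.09, without DMSO replicate 1 and without the block) and that of isp4 once (−0.16, without β-estradiol replicate 1 and without the block). Of 1015 recomputed values of the 51 named genes, 721 kept their side of the threshold, 292 lost the call and 2 turned in direction. A change of sign in a gene called in neither fit was not counted as a turn, and tti2 ranged from −0.26 to 0.23. Over the fits with the block, 37 of the 51 genes kept their side in every fit. With the block, leaving out 1 library also removes the information of its partner. Depth limits genes under 10 CPM, such as ght6 and str3.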
